A study of Mus musculus with 2 samples.

Results

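Subcluster 9 is a group of 747 neuron nuclei from mouse brainstem, out of 18281 nuclei in the series. Its members were chosen from the deposited annotation alone, as the nuclei with the cluster label neuron.1 that also carry number 9 in the authors' clustering at resolution 0.8. The rule compares no measured values between genotypes, and no nucleus with number 9 lay outside neuron.1 (0 nuclei). Of the members, 436 came from the WT library and 311 from the HET library.

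The study asked how the brainstem transcriptome of a mouse model of Dravet syndrome, a severe childhood epilepsy, differs at baseline from that of a littermate. The HET mouse carried 1 copy of a knock-in missense allele of *Scn1a* (A1783V). It came from crossing a floxed-stop *Scn1a* A1783V male with a Sox2-Cre female, a driver that acts in the early embryo and so reaches all neurons. The WT littermate carried no mutant copy, and both mice were untreated females on a C57BL/6J background at postnatal day 41. Each genotype is 1 animal and 1 single-nucleus RNA-seq library (10x Chromium 3′ v3.1) from flash-frozen dissected brainstem. With 1 library per genotype no p-value can be given, genotype and library cannot be told apart, and every interval covers counting error alone.

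Inhibitory neurons of the brainstem release GABA, glycine or both from the same terminals. GABA is made by the enzymes encoded by *Gad1* and *Gad2*, both transmitters are loaded into vesicles by the transporter encoded by *Slc32a1*, and the transporter encoded by *Slc6a5* gathers glycine into the terminal. In the embryonic hindbrain and spinal cord, transcription factors such as Pax2, Pax8 and Lhx1 are made by lineages that give rise to inhibitory interneurons, and Hox genes mark position along the head-to-tail axis.

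The members held 3525384 unique molecular identifiers (UMIs, each a counted RNA molecule) in the WT and 2796696 in the HET. Median depth per nucleus was 7124.5 UMIs (WT) and 8213 UMIs (HET), against 7777 and 8399.5 in the 5682 and 5082 other neuron nuclei. Subcluster 9 made up 8.66% of neuron.1 nuclei in the WT (95% Clopper-Pearson interval 7.90 to 9.48) and 7.62% in the HET (6.83 to 8.48), and these intervals overlap. Of all neuron nuclei the members were 7.13% in the WT (6.49 to 7.80) and 5.77% in the HET (5.16 to 6.42), which do not overlap. Of all nuclei they were 4.71% (4.29 to 5.16) and 3.45% (3.08 to 3.84), which do not overlap either. Ribosomal protein genes took a median of 0.614% of the UMIs of a member nucleus in the WT and 0.328% in the HET, by the authors' values, and 0.572% and 0.335% in the other neuron nuclei. The barcode of 5 members also occurs in the other library, where 23 barcodes in all are shared.

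The members carried the neuronal label in the counts too. The nuclear neuronal protein gene *Rbfox3* had 362 CPM (the UMIs of a gene scaled to a common total, as counts per 1000000 UMIs summed over the nuclei of a group) in the WT and 392 in the HET. The synaptic vesicle fusion gene *Snap25* stood at 572 and 665 CPM. At least 1 *Snap25* UMI was found in 95.3% of members, against 33.0% of 4131 oligodendrocyte nuclei, which should lack it and so show how much free RNA the droplets hold. Their median depth was 2807 UMIs against 7512 in the members, and after each nucleus was thinned to 1000 UMIs the shares were 44.3% and 13.2%. The authors' second label called all 747 members neurons.

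Genes of inhibitory transmission set subcluster 9 apart from the other neuron nuclei, in both libraries. A gene was counted as higher or lower when it was past 2-fold in the same direction in both libraries, among genes with 200 or more UMIs in all neuron nuclei. By that rule 199 of 15352 genes were higher in subcluster 9 (1.3%) and 593 were lower (3.86%). The clustering was made on the expression of these same nuclei, so these ratios describe the group and do not test it.

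Of 4 GABA genes, 3 were higher and none lower. *Gad1* stood at 90.5 CPM in the WT members and 60.8 CPM in the HET members, against 30.7 and 30.3 CPM in the other neurons. Its log2 ratios were 1.56 and 1.00. *Slc32a1* stood at 99.6 and 55.4 CPM against 39.7 and 23.7. The second GABA-synthesizing enzyme gene behaved otherwise. *Gad2* stood at 84.8 and 69.0 CPM in the members and 67.2 and 67.7 CPM in the other neurons, with log2 ratios of 0.34 and 0.03. Against the other neuron.1 nuclei alone, the nearer log2 ratio of *Gad1* was 0.73, short of 2-fold. With all other neuron subclusters weighted equally, that of *Slc32a1* was 0.97.

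The glycine transporter gene *Slc6a5* was high in the members as well, at 174 CPM in the WT and 158 CPM in the HET against 92.1 and 60.6 CPM in the other neurons. Its log2 ratio of 0.92 in the WT stayed short of 2-fold, and that of the HET was 1.39. Of the 6 genes of glycine transmission only *Slc32a1* was past 2-fold in both libraries. *Glra1*, a glycine receptor subunit, had log2 ratios of 0.35 and 0.44.

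A UMI of *Slc6a5* was found in 60.2% of members, in 30.0% of other neuron nuclei and in 5.95% of oligodendrocytes. After thinning these shares were 13.6%, 6.27% and 2.12%. A GABA or glycine gene without any vesicular glutamate transporter gene was found in 75.0% of members (71.7 to 78.0), in 38.2% of other neurons and, at their lower depth, in 18.3% of oligodendrocytes (17.2 to 19.6). Glutamate transporter genes alone were found in 1.47% of members (0.737 to 2.62), 29.6% of other neurons and 11.3% of oligodendrocytes. A GABA gene together with *Slc6a5* was seen in 46.7% of members, in 23.1% of the other neurons and in 1.04% of oligodendrocytes. A stricter count asked for at least 5 UMIs of GABA and glycine genes and 5 times those of the glutamate genes. It held 27.0% of members (23.9 to 30.4), 15.7% of other neurons and none of 4131 oligodendrocytes (0%, up to 0.0893%). No transmitter gene of either kind was seen in 8.70% of members.

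Genes of other transmitters were low. *Slc17a6*, the vesicular glutamate transporter of most brainstem excitatory neurons, stood at 17.9 CPM in the WT members and 21.1 CPM in the HET members, against 77.2 and 86.8 CPM in the other neurons. Its thinned share of nuclei was 2.25% in the members and 4.41% in oligodendrocytes, which were the shallower nuclei before thinning. The part of free RNA in the members' share was not tested. Of 3 measured cholinergic genes 2 were lower, and of 5 serotonergic genes 4 were lower. *Chat*, which makes acetylcholine, had 2 UMIs in each library, with log2 ratios of -3.62 and -3.08. *Slc6a4*, the serotonin uptake transporter, had the lowest ratio among genes with an assigned symbol, taking the nearer of both libraries, with 1 UMI in each library and log2 ratios of -4.74 (-10.04 to -2.25) and -3.93 (-9.24 to -1.44).

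**Figure D1:**
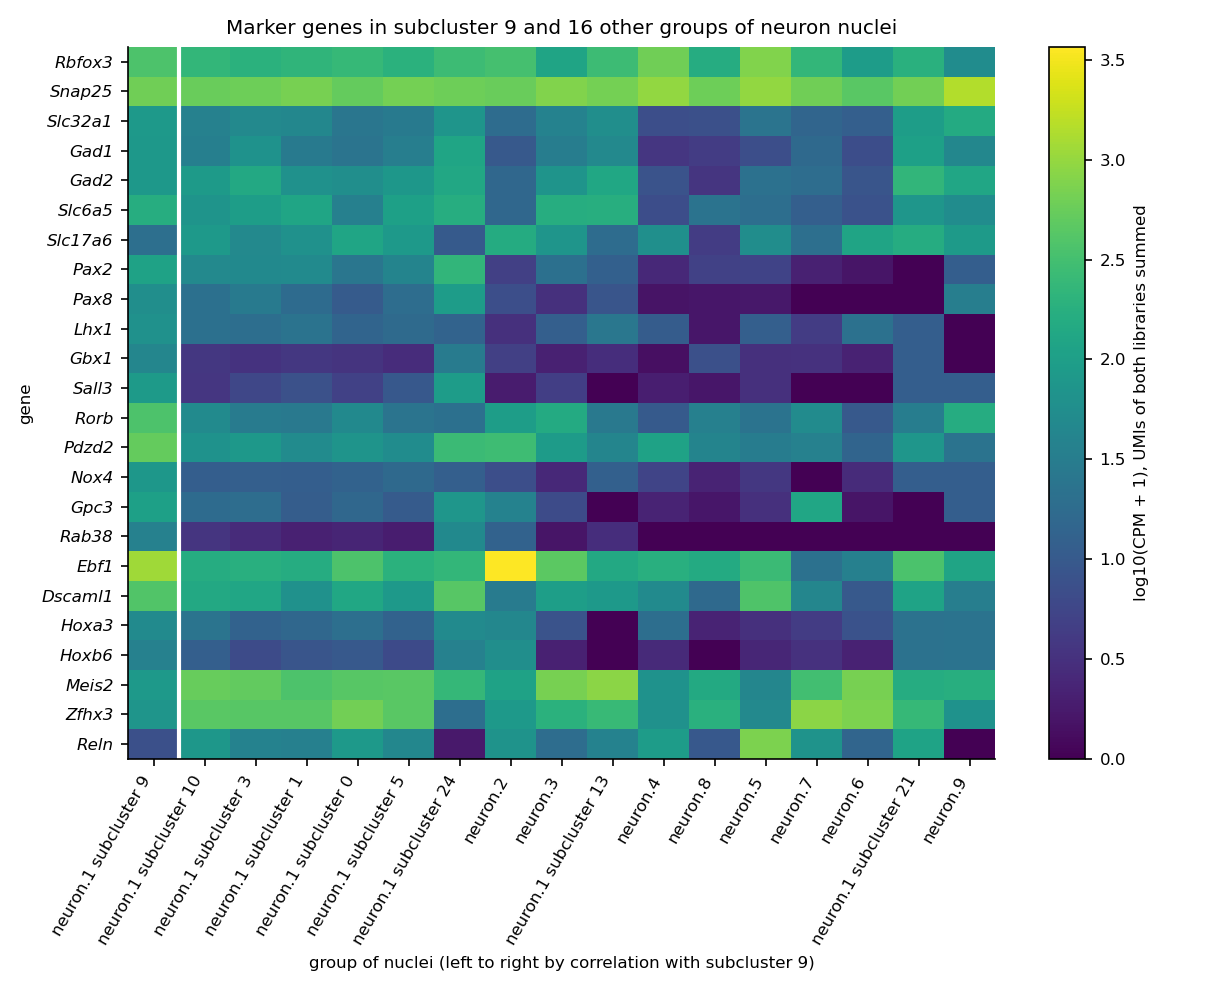
Level of marker genes (rows) in subcluster 9 (left column) and in the other groups of neuron nuclei with at least 30 nuclei (columns, ordered by correlation with subcluster 9), as log10(CPM + 1) of UMIs summed over both libraries. *Gbx1*, *Rorb*, *Pdzd2*, *Nox4* and *Lhx1* are at their highest in subcluster 9, while *Sall3* is bright in subcluster 24 as well.

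The transcription factor genes *Gbx1*, *Sall3* and *Rorb* were among the 15 leading genes. Of 23 measured hindbrain lineage factors, 7 were higher and 10 lower. *Gbx1*, a homeobox gene of dorsal spinal inhibitory interneurons (mm10 chromosome 5, 24502757 to 24527202, minus strand), had 166 WT and 102 HET UMIs, or 47.1 and 36.5 CPM. The other neurons stood at 3.08 and 2.24 CPM, so the ratios were 15.3-fold and 16.3-fold. *Gbx1* UMIs were found in 26.6% of members, 2.42% of other neurons and 0.436% of oligodendrocytes. *Sall3*, a zinc finger factor, had 351 and 190 UMIs, and its ratios were 13.6-fold and 18.3-fold. *Pax2* stood at 111 and 114 CPM against 38.3 and 30.1, *Pax8* at 55.9 and 59.4 CPM against 15.8 and 13.1, and *Lhx1* at 71.2 and 51.8 CPM against 16.9 and 13.7. The lowest of this list was *Mecom*, with log2 ratios of -3.44 and -2.95. *Pax8* was chosen after its values were seen.

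*Rorb*, a nuclear receptor of the ROR family (chromosome 19, 18930605 to 19111196, minus strand), had 1455 UMIs in the WT members and 878 in the HET members. Its 413 and 314 CPM compare with 41.1 and 42.6 CPM in the other neurons, ratios of 10.0-fold and 7.36-fold. *Ebf1*, a factor of neuronal differentiation, stood at 1101 and 1212 CPM against 464 and 360. With all other neuron subclusters weighted equally its nearer log2 ratio was 0.52, short of 2-fold. Of 49 broadly used neuronal factors 8 were higher and 10 lower, the lowest being *Onecut3*, with log2 ratios of -3.18 and -2.77 from 1 UMI in each library.

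Of 14 measured Hox genes 9 were higher and none lower, with median log2 ratios of 1.08 in the WT and 1.60 in the HET. The medians over all 15352 genes were -0.03 and -0.03. *Hoxb8* had log2 ratios of 2.14 and 2.86, *Hoxa3* of 1.39 and 1.80, and *Hoxb3* of 1.05 and 1.59. In contrast, 9 of 10 midbrain factors were lower and none higher. *Meis2* of that list stood at 89.9 and 70.8 CPM against 406 and 394 CPM in the other neurons. It was also high in neuron.1 subclusters 10 and 3, at 551 and 501 CPM, so it is not a mark of midbrain neurons alone. *Lmx1a*, a factor of midbrain dopaminergic neurons, was among the 5 genes with the smallest ratios by the same measure, at 1 UMI in the WT and 2 in the HET.

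**Figure D2:**
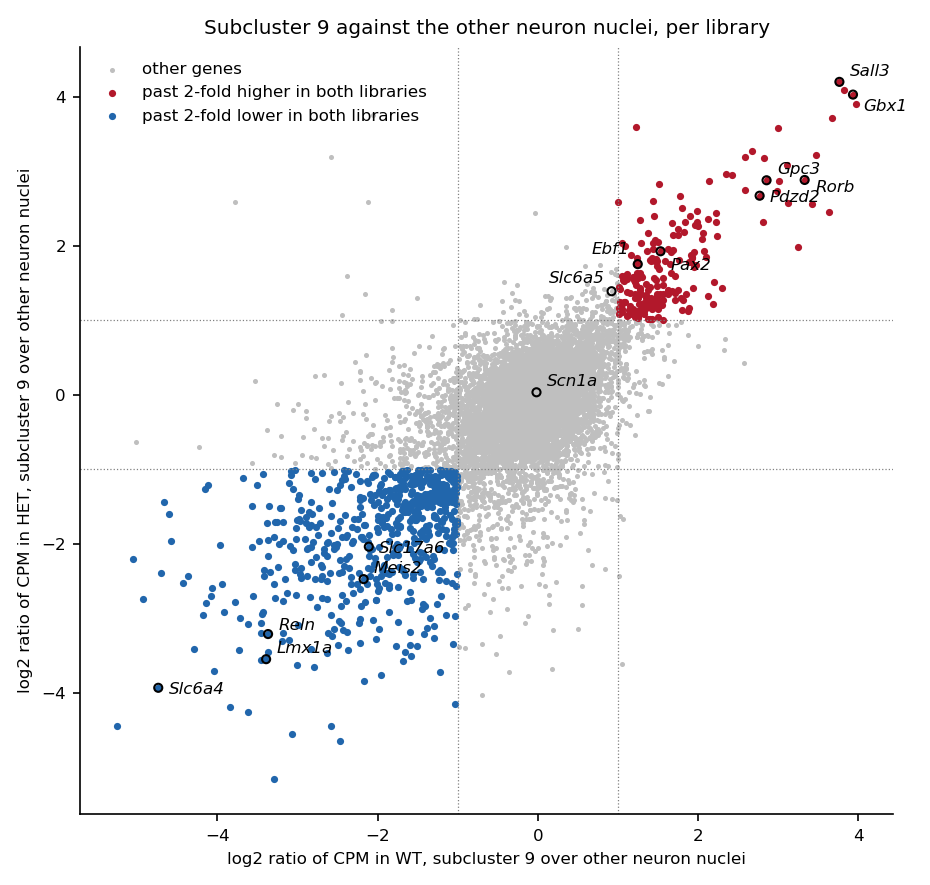
Each point is a gene with 200 or more UMIs in all neuron nuclei. The axes give the log2 ratio of its CPM in subcluster 9 over the other neuron nuclei, in the WT (x) and the HET (y), and coloured points are past 2-fold in the same direction in both. *Gbx1*, *Sall3* and *Rorb* lie at the upper right and *Slc6a4* at the lower left, while *Scn1a* lies near 0 on both axes.

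The remaining leading genes were of mixed function. *Rab38*, a small GTPase of vesicle transport, had ratios of 15.7-fold and 14.9-fold. *Pdzd2*, a PDZ domain protein gene (chromosome 15, 12359711 to 12739924, minus strand), had the most UMIs of these genes, 1852 and 1488, and ratios of 6.81-fold and 6.36-fold. *Nox4*, an NADPH oxidase, stood at 79.1 and 74.0 CPM against 9.85 and 10.1. The cell surface proteoglycan genes *Gpc3* and *Gpc4* were both among the leading 15. *Gpc3* ratios were 7.23-fold and 7.34-fold, and *Gpc4* ratios were 7.91-fold and 6.62-fold. *Kank1*, *Serpinb1b*, *Cdh3*, *Corin*, *Shisa8*, *Mboat1* and *Prkcq* completed the list, with ratios between 5.09-fold for *Prkcq* in the WT and 12.4-fold for *Shisa8* in the WT. With all other neuron subclusters weighted equally, *Cdh3* was no longer past 2-fold, at a nearer log2 ratio of 0.39.

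Genes of receptors and channels were mixed. Of 37 measured receptor genes of neuropeptides and monoamines, 4 were higher and 6 lower. *Drd2*, a dopamine receptor, stood at 32.6 and 27.9 CPM against 8.32 and 8.36, and *Npy*, a neuropeptide precursor, at 32.9 and 9.65 CPM against 7.59 and 3.84. The kainate receptor gene *Grik2*, the NMDA receptor gene *Grin2a* and the metabotropic receptor gene *Grm5* were past 2-fold, with *Grm5* at 2422 and 2475 CPM against 988 and 1069. Among 16 calcium and pacemaker channel genes, *Cacna2d3* was higher, with log2 ratios of 1.34 and 1.48, and *Cacna2d1* lower, with -2.43 and -2.30. These encode auxiliary subunits of the same channel family. *Cacna1i*, a low-voltage-activated calcium channel gene, had ratios of 1.81 and 1.27. None of 11 sodium channel and none of 33 potassium channel genes was past 2-fold in both libraries. Over all genes 1.3% were higher and 3.86% lower, so these counts do not set the channels apart from other genes. Among synapse genes *Dscaml1*, an adhesion molecule, had log2 ratios of 2.09 and 1.84, and the vesicle protein genes *Syt6* and *Sv2b* lay on opposite sides, at 1.79 and 1.29 and at -1.90 and -2.40.

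Genes that mark other cell types in or near the brainstem were present among the members, mostly near the level of the other neurons. All markers of astrocytes, oligodendrocytes, their precursors, microglia, endothelium, fibroblasts and pericytes, ependyma and choroid plexus had UMIs among the members, so no defining marker was at 0. The summed level of the 10 oligodendrocyte markers was 724 CPM in the WT members and 749 CPM in the HET members, against 632 and 769 CPM in the other neurons. That of the 10 astrocyte markers was 127 and 126 CPM, against 101 and 100.3. That of the 8 oligodendrocyte precursor markers was 537 and 799 CPM, against 698 and 834. Of the 5 measured choroid plexus markers, 2 were past 2-fold higher in subcluster 9, *Kl* with log2 ratios of 1.52 and 2.83 from 19 WT and 24 HET UMIs, and *Enpp2* with 1.34 and 1.15, and *Clic6* was past 2-fold lower, with -1.34 and -3.0 from 8 WT UMIs and 1 HET UMI. Of the astrocyte markers *Ntsr2* was, with 1.24 and 1.56. Marker genes of cerebellar granule cells (4 of 8 lower) and of the inferior olive (4 of 8 lower) were on the low side, and of 6 Purkinje cell genes none was past 2-fold.

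The profile of subcluster 9 was closest to those of other neuron.1 subclusters. Over 15352 genes the correlation of log2(CPM + 10) was 0.975 with subcluster 10 (611 nuclei), 0.975 with subcluster 3 (1498 nuclei) and 0.973 with subcluster 1 (2225 nuclei). These groups share libraries and depth, and the values are descriptions. Of 17 groups of neuron nuclei, subcluster 9 had the highest level of *Gbx1*, *Rorb*, *Pdzd2*, *Nox4*, *Lhx1*, *Hoxa3* and *Drd2*. It had the second highest of *Sall3*, *Gpc3*, *Pax2*, *Pax8*, *Slc6a5*, *Ebf1*, *Dscaml1* and *Hoxb6*. *Hoxb6* stood at 35.9 CPM, against 57.2 CPM in the cluster neuron.2. Against subcluster 10, 274 genes were past 2-fold higher in both libraries and 454 lower. *Slc6a5* stood at 167 CPM in subcluster 9 and 69.8 CPM in subcluster 10, and *Slc17a6* at 19.3 and 79.8 CPM. For *Slc32a1*, *Gad1* and *Hoxb8* subcluster 9 ranked 3 of 17, and for *Gad2* 7 of 17. Subcluster 3 held more *Gad2*, at 139 CPM against 77.8 CPM, and had *Gad1* at 64.1 CPM against 77.3 CPM. *Slc6a5* stood at 95.7 CPM in subcluster 3, 123 CPM in subcluster 1 and 166 CPM in the cluster neuron.3.

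A small group, subcluster 24 (119 nuclei, correlation 0.968), was chosen for comparison after its values were seen, because it shared some marker genes of subcluster 9. *Sall3* stood at 85.6 CPM in subcluster 9 and 92.6 CPM in subcluster 24, a log2 ratio of -0.11 (-0.40 to 0.18). *Slc6a5* had a log2 ratio of 0.03 (-0.18 to 0.25) and *Hoxa3* of 0.01 (-0.39 to 0.42), so neither differed beyond counting error. *Gbx1*, at 42.4 and 29.6 CPM, was higher in subcluster 9 past counting error, at a log2 ratio of 0.52 (0.03 to 1.05). Of the GABA genes, *Gad1* stood at 77.3 CPM against 125 in subcluster 24 and *Gad2* at 77.8 CPM against 137, while *Slc32a1* did not differ beyond counting error, at a log2 ratio of 0.18 (-0.15 to 0.51). *Pax2* likewise stood at 112 CPM against 220. On the other side, *Rorb* stood at 369 CPM in subcluster 9 and 19.5 CPM in subcluster 24, a log2 ratio of 4.25 (3.68 to 4.88). *Nox4* (2.82), *Lhx1* (2.33) and *Ebf1* (2.34) differed in the same direction, and *Cdh3* (-3.04), *Prkcq* (-1.57) and *Gpc4* (-0.89, -1.43 to -0.33) in the opposite one. Of the other leading genes, *Rab38* (35.6 and 47.5 CPM, -0.42, -0.83 to 0.02), *Corin* (-0.26, -0.80 to 0.32) and *Serpinb1b* (0.44, -0.09 to 1.02) did not differ past counting error. *Gpc3*, *Kank1*, *Pdzd2*, *Shisa8* and *Mboat1* were higher in subcluster 9. So were *Drd2* (0.97) and *Npy* (2.54), while *Dscaml1* (-0.17, -0.30 to -0.04), *Grm5* (-0.23) and *Cacna2d3* (-0.63) were lower than in subcluster 24. *Rorb*, *Nox4*, *Lhx1* and *Ebf1* therefore separated these groups, while *Sall3*, *Slc6a5* and *Hoxa3* did not.

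Subcluster 9 was not uniform. Clustering of its members by their own variable genes split them into 6 subgroups of 266, 220, 95, 95, 45 and 26 nuclei, each with nuclei of both libraries. This division used the same genes and is a description. *Rbfox3* and *Snap25* were present in all 6, at 295 to 489 CPM and 526 to 664 CPM. *Rorb* ranged from 3.52 CPM in the fifth subgroup to 927 CPM in the second, so its high level rests on part of the nuclei, and *Rorb* UMIs were found in 39.5% of members. *Pax2* varied less, from 80.9 to 162 CPM. *Slc6a5* lay between 144 and 222 CPM in 5 subgroups and at 27.0 CPM in the third. That one had instead the highest *Gad1* (120 CPM), *Gad2* (103 CPM) and *Npy* (64.1 CPM). The fifth, of 45 nuclei, had the highest *Gbx1* (130 CPM) and *Sall3* (179 CPM) and the lowest *Gad2* (17.6 CPM). *Slc17a6* stayed between 12.8 and 28.5 CPM in all.

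**Figure D3:**
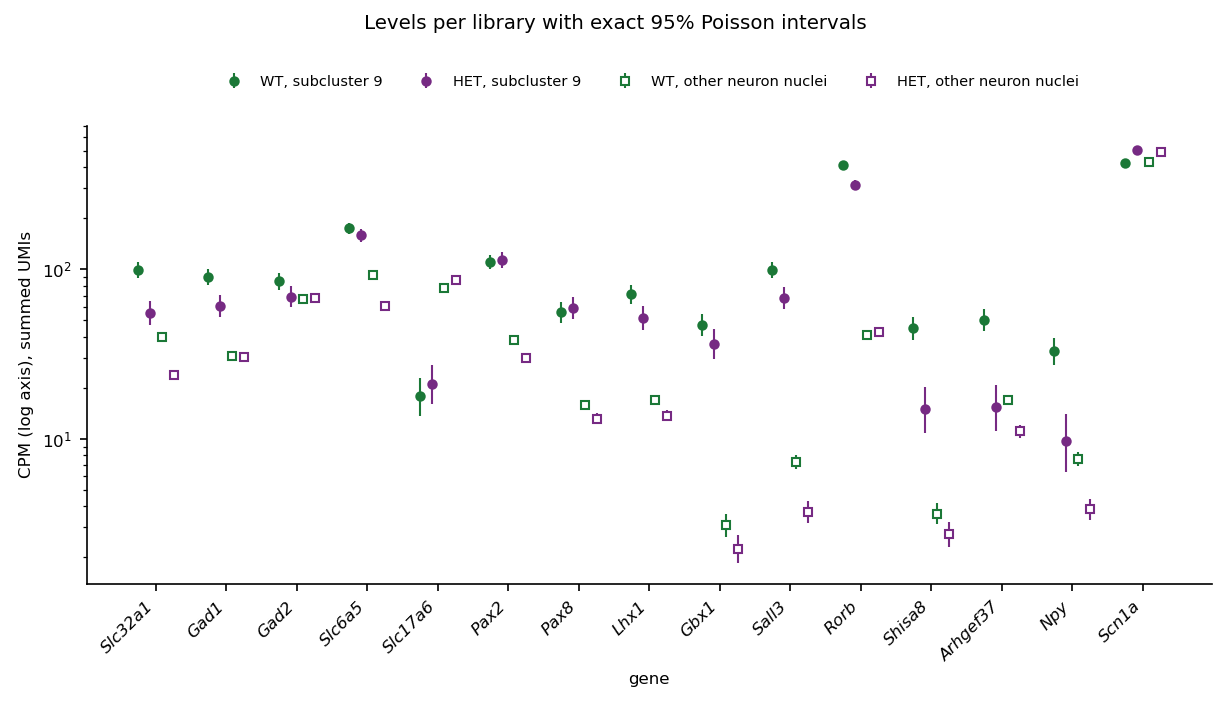
Level of each gene in CPM (log axis) in the WT (green) and the HET (purple), in subcluster 9 (filled circles) and in the other neuron nuclei (open squares), with exact 95% Poisson intervals of the summed UMIs. For *Slc32a1*, *Shisa8*, *Arhgef37* and *Npy* the HET point of subcluster 9 lies below its WT point, and for *Scn1a* slightly above it.

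The comparison of HET with WT within subcluster 9 asks what the mutant brainstem library shows in these neurons. In summed counts, fewer cells of a type and less RNA per cell cannot be told apart. A gene was counted when its ratio was past 1.5-fold with a 95% interval that leaves out 0, among genes with 20 or more UMIs in the members. By that rule 691 of 13601 genes were higher in the HET (5.08%) and 1578 were lower (11.6%). The median log2 ratio over these genes was -0.09, and it was -0.10 in the other neurons of the same libraries. A call therefore says that the libraries differ past counting error, and not that the genotypes do.

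*Scn1a*, the mutated gene (chromosome 2, 66270778 to 66440840, minus strand), encodes a sodium channel that supports fast firing. It had 1500 UMIs in the WT members and 1407 in the HET members, or 425 and 503 CPM. The log2 ratio was 0.24 (0.14 to 0.35), and 0.19 in the other neurons, so the ratio in subcluster 9 exceeded theirs by 0.05 (-0.06 to 0.16). The knock-in changes 1 amino acid, and counts at the 3′ end do not show which allele was read. Of 10 sodium channel genes 1 was called. *Scn9a* had 1452 WT and 2001 HET UMIs, a log2 ratio of 0.80 (0.45 in the other neurons), and the ratios of *Scn2a* and *Scn8a* were -0.08 and 0.04.

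Of 4 genes of GABA transmission, 2 were lower in the HET members and none was higher. *Slc32a1* had 351 WT and 155 HET UMIs, a log2 ratio of -0.85 (-1.13 to -0.57), against -0.74 in the other neurons. It was lower in 4 of 6 subgroups, with an interval below 0 in 3 of them. In 1 random draw of 1000 UMIs from each nucleus, which left 43 WT and 26 HET UMIs of *Slc32a1*, its ratio was -0.24 (-1.0 to 0.50). The mean CPM per nucleus, which involves no draw, gave -0.85. *Gad1* had 319 and 170 UMIs, and its ratio of -0.57 (-0.85 to -0.30) stayed just short of 1.5-fold, against -0.02 in the other neurons. With mean CPM per nucleus in place of sums it was -0.69, and without the nuclei with shared barcodes -0.59, past 1.5-fold in both. *Gad2* had a ratio of -0.30 and the glycine transporter gene *Slc6a5* one of -0.14 (-0.32 to 0.04). In the same draw *Slc6a5* kept 69 and 31 UMIs and its ratio was -0.67 (-1.33 to -0.04), while mean CPM per nucleus gave -0.09. The median of the 4 GABA genes was -0.71 in the members and -0.13 in the other neurons. Of 6 glycine genes 1 was lower, and that one is *Slc32a1*, which both lists hold.

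Fewer HET than WT members had a UMI of *Slc32a1*. It was found in 52.8% of WT members (47.9 to 57.5) and 37.3% of HET members (31.9 to 42.9), although the HET nuclei were the deeper ones. In oligodendrocytes its share was 10.4% in the WT and 7.42% in the HET. With each nucleus thinned to 1000 UMIs the expected shares of members were 10.3% (7.63 to 13.6) and 5.95% (3.72 to 9.38). The shares of *Gad1* were 40.6% and 34.4%, those of *Gad2* 39.2% and 39.5%, and those of *Slc6a5* 59.2% and 61.7%. A GABA gene together with *Slc6a5* was seen in 50.5% of WT members (45.7 to 55.2) and 41.5% of HET members (35.9 to 47.2). *Slc6a5* without a GABA gene was seen in 8.72% (6.24 to 11.8) and 20.3% (15.9 to 25.2), and in 5.80% and 4.26% of oligodendrocytes.

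*Shisa8* combined both comparisons: it was 1 of the 15 genes that most set subcluster 9 apart and 1 of the 10 with the lowest ratio of HET to WT. It belongs to a family of AMPA receptor auxiliary proteins (chromosome 15, 82206168 to 82212815, minus strand). It had 159 UMIs in the WT members and 42 in the HET members, a log2 ratio of -1.59 (-2.11 to -1.09), against -0.40 in the other neurons. Its UMIs lay mostly in the first subgroup, with 29 in the WT and 5 in the HET, and in the second, with 123 and 26. *Arhgef37*, a guanine nucleotide exchange factor gene, had a like pattern, with 178 and 43 UMIs and a ratio of -1.72 (-2.23 to -1.23), against -0.62 in the other neurons. Its UMIs in the second subgroup were 114 and 16, or 94.4 and 23.9 CPM.

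The sequence just upstream of the *Shisa8* start is shown because this gene both marks the group and differs between the libraries. It spans 250 bases at chr15:82212816-82213065 of GRCm38.p6, from RefSeq, written 5′ to 3′ on the minus strand, and 69.6% of it is G or C. Capitals mark the only match to AGGTCA on either strand, the core hexamer bound by nuclear receptors such as Rorb, here found as TGACCT on the printed strand.
Shisa8: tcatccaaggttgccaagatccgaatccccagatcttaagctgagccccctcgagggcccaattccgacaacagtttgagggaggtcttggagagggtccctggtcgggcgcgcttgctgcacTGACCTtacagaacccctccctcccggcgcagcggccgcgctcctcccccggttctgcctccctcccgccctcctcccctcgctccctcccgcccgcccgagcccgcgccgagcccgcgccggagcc
The motif begins 127 bases before the start. It occurs in 14.0% of 32851 windows of the same length, in those of 2 of the 11 leading genes that have a window, *Gpc4* and *Shisa8*, and in 8.88% of 169 windows of genes higher in subcluster 9. A match is a description of the letters and not a bound site.

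Ribosomal protein genes and genes of oxidative phosphorylation were mostly lower in the HET members. Of 81 ribosomal protein genes 71 were lower and none higher, with a median log2 ratio of -0.94 in the members and -0.84 in the other neurons. *Rps16* had 291 WT and 64 HET UMIs. Of 78 oxidative phosphorylation genes 49 were lower and none higher, with medians of -0.69 and -0.61. *Cox4i1*, a subunit of cytochrome c oxidase, had 743 and 326 UMIs, while *Ndufs4*, of complex I, had a ratio of 0.02. Of 14 heat shock and polyubiquitin genes 8 were lower, with *Hsp90ab1* at -0.76 and *Hspa8* at -0.71, and of 16 glycolysis genes 3 were lower, a share near the 11.6% of all genes. The heat shock medians were -0.60 in the members and -0.51 in the other neurons, and those of glycolysis -0.40 and -0.31. The share of UMIs in ribosomal protein genes per nucleus counts the same genes as the first list, so it is no separate measure of them. Its link to the other lists was not tested.

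Immediate early genes, which neurons switch on after strong activity, were lower in 8 of 12 cases and higher in none. *Junb* had 83 WT and 17 HET UMIs, *Egr1* had 68 and 19, and *Fos* had 20 and 4. The median was -1.04 in the members and -1.05 in the other neurons. *Homer1* was on the other side of 0, with 229 and 234 UMIs and a ratio of 0.37, and it was the only gene of this list with 200 or more UMIs. The finer form of the authors' second label called 31 of 311 HET members activated neurons (9.97%, 6.87 to 13.8) and 7 of 436 WT members (1.61%, 0.648 to 3.28). In the other neurons these shares were 4.72% and 1.09%. The label and the gene list thus pointed in opposite directions.

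Position and peptide genes were lower too. Of 13 Hox genes 7 were lower and none higher, with a median of -0.59 in the members and -1.19 in the other neurons, and *Hoxb7* had 55 and 17 UMIs while *Hoxb3* had a ratio of -0.10. With mean CPM per nucleus the Hox median was -0.83, and in 1 random draw of 1000 UMIs from each nucleus, which left 5 of these genes, it was 0.03. Of 14 neuropeptide precursors 6 were lower. *Npy* had 116 WT and 27 HET UMIs, a ratio of -1.77 (-2.43 to -1.15), against -0.98 in the other neurons. *Npy* UMIs were found in 18.8% of WT members and 8.36% of HET members, against 3.98% and 2.11% of oligodendrocytes. *Tac1*, the substance P precursor, had 111 and 22 UMIs and a ratio of -2.0 (-2.73 to -1.33), against -0.60 in the other neurons. Its thinned share was 2.04% of all members and 2.23% of oligodendrocytes, and 70 of its UMIs lay in the third subgroup, at 118 CPM against 11.0 in the rest. *Penk*, the enkephalin precursor, had 187 and 95 UMIs and a ratio of -0.64 (-1.01 to -0.28). Its thinned share of 5.07% of members (3.62 to 6.92) was not above the 4.60% of oligodendrocytes (3.98 to 5.28) beyond counting error.

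Counts of called genes of excitability are read against 5.08% higher and 11.6% lower over all genes. For receptors and potassium channels they do not stand clearly apart from those shares. Of 17 ionotropic glutamate receptor genes none was called, and of 12 GABA-A receptor genes 1 was, *Gabrb2*, with 293 WT and 429 HET UMIs and a ratio of 0.88. Of 33 potassium channel genes 1 was higher, *Kcnd3* at 0.73, and 3 were lower, with *Kcnn3* at -1.03. Genes of calcium-binding proteins and the perineuronal net, the matrix around fast-firing neurons, had 4 of 15 members higher and none lower, with a median of 0.43 in the members and 0.00 in the other neurons. *Hapln1* had 28 and 78 UMIs and *Tnr* 616 and 741. This median was 0.14 without the 5% of nuclei with the highest doublet scores and 0.06 with mean CPM per nucleus. The oligodendrocyte precursor markers were on the high side too, with 2 of 6 higher and none lower, and a median of 0.58 in the members and -0.21 in the other neurons. Their summed level was 537 CPM in the WT members and 799 CPM in the HET members, against 698 and 834 CPM in the other neurons. Most of that sum was *Lhfpl3*, with 1795 and 2136 UMIs. The part of these cells in the result was not tested.

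**Figure D4:**
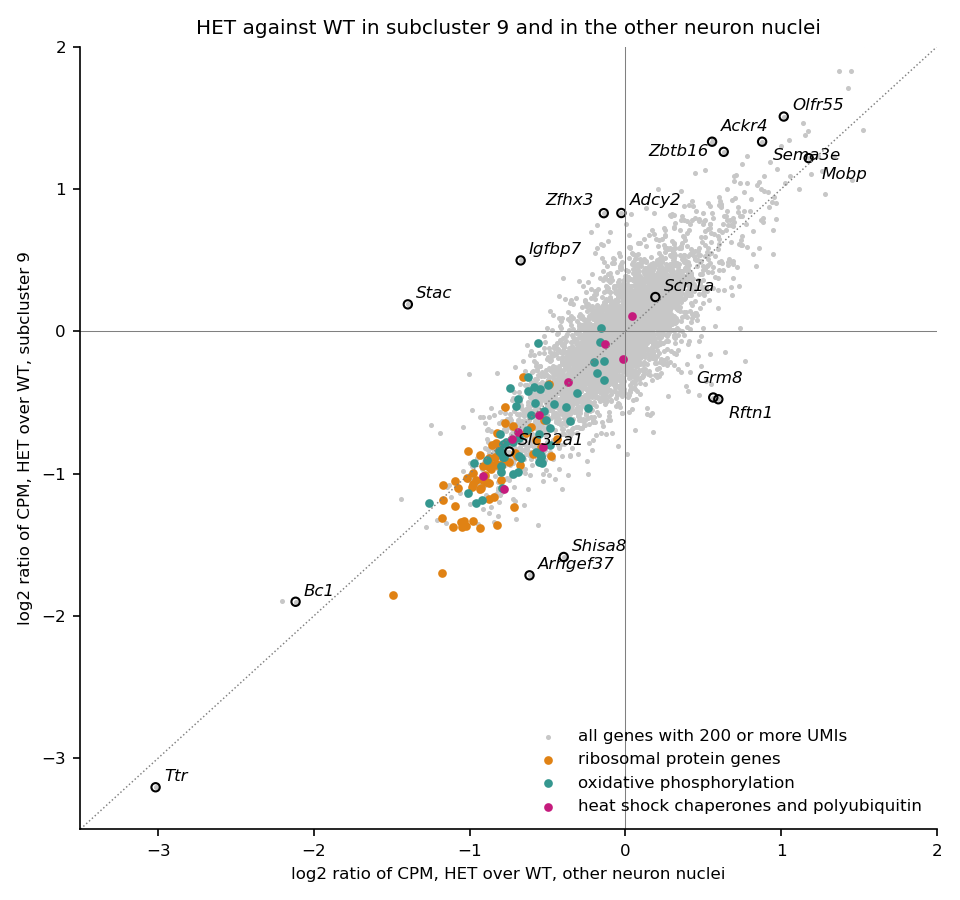
Each point is a gene with 200 or more UMIs in subcluster 9. The y axis gives the log2 ratio of CPM, HET over WT, in subcluster 9 and the x axis the same in the other neuron nuclei of the same libraries, with equality as a dotted line. *Ttr* and *Bc1* lie near that line at the lower left with the ribosomal protein genes above them, *Shisa8* and *Arhgef37* lie below it, and *Zfhx3*, *Igfbp7* and *Stac* above it.

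The largest ratios of single genes were mostly shared with the other neurons of the same libraries. *Ttr*, the secreted product of the choroid plexus, had 1012 UMIs in the WT members and 87 in the HET members, a log2 ratio of -3.21 (-3.54 to -2.89), and -3.02 in the other neurons. The summed level of the choroid plexus markers was 482 CPM in the WT members and 192 CPM in the HET members, and 335 and 120 CPM in the other neurons. *Bc1*, a short cytoplasmic RNA of neurons, had 4916 and 1044 UMIs, with ratios of -1.90 and -2.12, and *Esrra* had -1.37 and -1.28. *Mobp*, a myelin gene, had 78 and 144 UMIs, with ratios of 1.22 and 1.18. The part of free RNA from other cell types in these ratios was not tested. The 10 lowest ratios also held *Rps2*, *Rps3* and *Rpl14*, at -1.70, -1.39 and -1.38.

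Among the highest ratios were genes of varied function. *Olfr55* had 69 WT and 156 HET UMIs, a ratio of 1.51 (1.09 to 1.94), and 1.02 in the other neurons. *Sema3e*, an axon guidance ligand, had 115 and 230 UMIs and ratios of 1.33 and 0.88. Of its UMIs 90 lay in the sixth subgroup, which held 8 WT and 18 HET nuclei. *Zbtb16*, a transcription factor, had 114 and 217 UMIs and ratios of 1.26 and 0.63. *Ackr4*, an atypical chemokine receptor, had 72 and 144 UMIs and ratios of 1.33 and 0.56. The gene model BB365896 was 3.55-fold higher, and *Dock2*, *Alas2*, *Gss* and *Pigf* completed the 10, at 1.23, 1.13, 1.10 and 1.09. *Ackr4*, *Dock2*, *Mobp* and *Alas2* were not counted in 1 random draw of 1000 UMIs from each nucleus, at 1.19, 0.49, 0.87 and 0.59. With mean CPM per nucleus they were at 1.00, 1.12, 1.13 and 1.15.

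Some genes had another ratio in subcluster 9 than in the other neurons of the same libraries. The make-up of those other neurons differed between the libraries, with 1714 WT and 511 HET nuclei in subcluster 1. The ratio in subcluster 9 exceeded that in the other neurons past 1.5-fold, with an interval that leaves out 0, for 345 genes (2.54%), and fell short of it for 328 genes (2.41%). For *Stac* the departure changed with the reference. It had 516 and 467 UMIs and a ratio of 0.19, against -1.40 in the other neurons, a departure of 1.59 (1.39 to 1.79), but against the other neuron.1 nuclei alone the departure was -0.06. *Zfhx3*, a transcription factor, had 187 and 264 UMIs and a ratio of 0.83 (0.56 to 1.11), against -0.14. *Adcy2*, an adenylyl cyclase, had 424 and 599 UMIs and a ratio of 0.83 (0.65 to 1.02), against -0.03. *Igfbp7* (0.50 against -0.67) and *Pde11a*, a cyclic nucleotide phosphodiesterase (0.70 against -0.22), completed the 5 largest departures. The *Zfhx3* ratio was above 0 in 5 of 6 subgroups, though without the 5% highest doublet scores its ratio was 0.57 and that of *Pde11a* 0.45, both no longer counted. With the 6 subgroups weighted equally the *Adcy2* ratio was 0.51, also no longer counted.

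The 5 smallest departures included *Shisa8*, at -1.19 (-1.77 to -0.61), and *Arhgef37*, at -1.10 (-1.60 to -0.60). *Grm8*, a metabotropic glutamate receptor, had 783 WT and 450 HET UMIs, a ratio of -0.47 (-0.64 to -0.30) against 0.56 in the other neurons. *Rftn1*, a lipid raft protein gene, had 186 and 106 UMIs and a ratio of -0.48 against 0.60. *Nfib*, a transcription factor, had a ratio of -0.21 against 0.77, and its departure was -0.25 against the other neuron.1 nuclei. The *Slc32a1* ratio differed from that in the other neurons by -0.10 (-0.39 to 0.19) and that of *Gad1* by -0.56 (-0.84 to -0.27), while that of *Slc6a5* exceeded it by 0.47 (0.28 to 0.66).

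**Figure D5:**
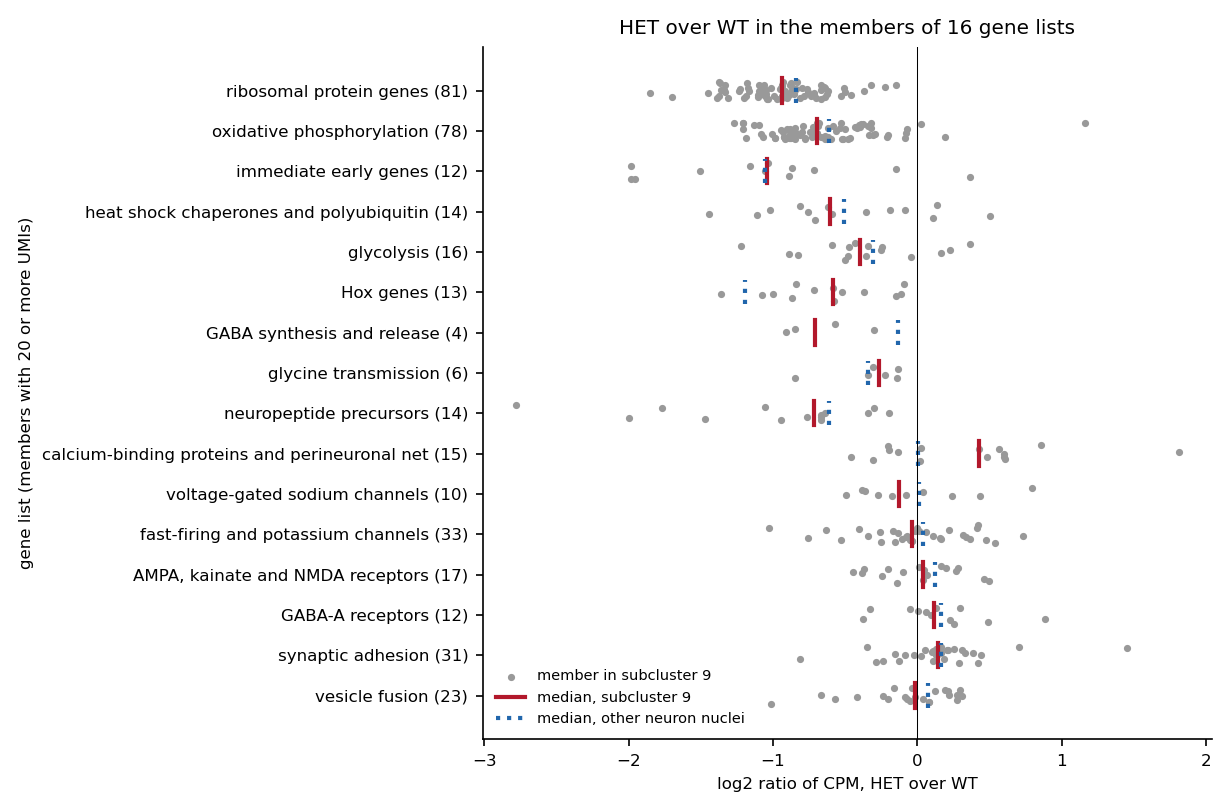
Log2 ratio of CPM, HET over WT, of each measured member (grey points, 20 or more UMIs in subcluster 9) of the gene lists, with the list's median in subcluster 9 (solid red) and in the other neuron nuclei (dotted blue). The medians of ribosomal protein, oxidative phosphorylation and immediate early genes lie far below 0 in both, that of GABA genes lies at -0.71 in subcluster 9 and -0.13 in the others, and those of channels and receptors lie near 0.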

How the data were processed

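Single nuclei of 1 WT and 1 HET brainstem were profiled with 10x Chromium 3′ v3.1 chemistry. The deposited counts are UMIs per gene and nucleus (25556 genes, 18281 nuclei), which the authors made with Cell Ranger (version not given in the sources used here) on mm10 and filtered in Seurat 4.1, removing nuclei with fewer than 1000 genes or over 15% mitochondrial UMIs. The authors' percent values (share of UMIs in ribosomal or mitochondrial genes) and doublet scores were used as deposited, and nuclei the authors called doublets were absent already. Cluster, subcluster and reference labels were also theirs. The WT library holds 70301390 UMIs and the HET library 66176778.

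Summed UMIs of each group of nuclei were compared as log2 ratios of CPM, with exact conditional binomial 95% intervals for ratios, exact Poisson ones for levels and Clopper-Pearson ones for shares. Intervals of departures are normal approximations from the summed counting variances of the log counts involved. All these intervals reflect counting error, and no test was run because each genotype has 1 library. Members and gene lists were chosen with earlier results of these data known. Named were the 15 highest and 5 lowest identity ratios, the 10 highest and 10 lowest genotype ratios, the 5 largest and 5 smallest departures, each among genes with 200 UMIs and without unnamed gene models, *Scn1a*, and from each list the extremes and up to 4 members with the most UMIs. Some genes that this rule names are not reported here. Subgroups came from 2000 variable genes, 20 principal components, 15 nearest neighbours and Leiden clustering at resolution 0.3. Motifs were searched on both strands of RefSeq windows, with the GRCm38.p6 build, and positions are those of GENCODE on mm10. The scripts were tested on simulated data. Software was scipy 1.17.1, scikit-learn 1.9.0, pandas 2.3.3, igraph 0.11.9, numpy 2.4.6 and matplotlib 3.10.9 in Python 3.11.15, with edgeR 4.0.16 in R 4.3.3 for TMM factors only.

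Alternatives were other UMI minima, TMM or median scaling, totals without ribosomal protein genes, means over nuclei, thinning to 1000 UMIs (1 random draw for ratios, expected values for shares), removal of the highest doublet scores, other reference nuclei and other denominators. Equal weights for the 6 subgroups and removal of shared barcodes were added after seeing the data.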

Additional observations from a re-analysis of the deposited data

Results flagged for a closer look

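For 6 of the 10 genes named for their departure from the other neurons, the HET over WT log2 ratio in subcluster 9 and that in the other neuron nuclei lay on opposite sides of 0, each with a counting interval without 0. The difference was not tested, since each genotype is 1 library. *Stac* had 0.19 in subcluster 9 and -1.40 in the other neurons. *Igfbp7* had 0.50 and -0.67, *Zfhx3* had 0.83 and -0.14, and *Pde11a* had 0.70 and -0.22. *Rftn1* had -0.48 and 0.60, and *Grm8* had -0.47 and 0.56. In subcluster 9 itself the ratios of *Stac*, *Igfbp7*, *Rftn1* and *Grm8* were short of 1.5-fold.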

How the results depend on the processing

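No paired analysis was possible because each genotype is 1 library, and leaving out a replicate was impossible for the same reason. With a minimum of 200 UMIs the genes counted in the HET against WT comparison were 189 higher and 483 lower, and with each nucleus thinned to 1000 UMIs 278 higher and 411 lower, from fewer genes or fewer UMIs by construction. TMM scaling gave 798 and 1348, other scalings and removals 612 to 848 and 1471 to 1833. With a minimum of 20 UMIs, 1251 genes were higher in subcluster 9 than in the other neurons. Members were 7.13% (WT) and 5.77% (HET) of all neuron nuclei, and 4.71% and 3.45% of all nuclei. With the 200 UMI minimum the median of immediate early genes was 0.37, resting on *Homer1* alone, and that of Hox genes -0.11, over 3 genes. Thinning, here 1 random draw, turned the Hox median to 0.028 over the 5 genes it left. The departure of *Stac* was -0.064 against the other neuron.1 nuclei, and the cause was not tested. Of all other values, 752 kept their call or stayed within the limit set for them, 20 lost the call, 6 gained it and 11 moved further than that limit. An uncalled value that crossed 0 is among the 752. The setting that kept only members called neurons left the HET against WT values as they were, since all 747 carry that label. Depth limits the small lists: *Fos* rests on 20 and 4 UMIs, and low genes have intervals of over 2-fold.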
